A study of Mus musculus with 9 samples.

Results

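Mitochondrial ribosomal protein genes were followed in C2C12 cells, a mouse myoblast line that fuses into myotubes when serum is reduced. The genes were chosen by name: every protein-coding gene whose symbol begins with Mrpl or Mrps and a digit, which gave 78 of the 47729 genes counted, 49 Mrpl and 29 Mrps. Poly(A) RNA was sequenced from 3 populations, each at days 0, 3 and 5. WT was the control population, treated with a guide RNA that targets no gene. Per1KO and Per2KO had been edited with CRISPR-Cas9 against Per1 or Per2, which encode repressors of the circadian clock. All 3 were grown in 10% FBS and moved to 5% horse serum for differentiation, and day 0 was taken before the change. Every population and day is 1 library, 9 in all, and the labels do not say whether the knockout populations were clones or pools.

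The mitochondrial ribosome translates the few mRNAs encoded in mitochondrial DNA, all of them for subunits of oxidative phosphorylation. Its ribosomal RNAs come from mitochondrial DNA, whereas all of its proteins are encoded in the nucleus and imported. Some of these proteins have a counterpart in the bacterial ribosome and others are found in mitochondria only. Symbols do not always give the place of a protein: the products of Mrps30 and Mrps18a sit in the large subunit, and Mrps36 encodes a component of the 2-oxoglutarate dehydrogenase complex. Differentiating muscle cells increase mitochondrial respiration, which was not measured in these cultures.

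The WT libraries held 5020385 to 6773320 counts and the knockout libraries 41997763 to 48051824, at least 6.2 times as many, and in the sample titles WT alone carries a lane suffix. Sequencing depth, lane and genotype therefore cannot be told apart. The tissue label reads Whole Muscle, but the markers were those of cultured myogenic cells: Myod1, Myf5 and Des were counted in all 9 libraries, and the adipocyte genes Adipoq, Cidec and Lep, the macrophage gene Adgre1 and the globin genes Hba-a2, Hbb-bs and Hbb-bt were at 0 in all 9. Of the listed markers of other cell types, 4 passed the filter on low counts: Cd14 (6.22 to 13.8 CPM), Tek (0.551 to 3.60 CPM), Mbp (0.0961 to 1.93 CPM) and Hba-a1 (0.0974 to 2.12 CPM). Of 5 listed markers of adult muscle fibres, Myh1, Myh2, Myh4 and Mb passed and Pvalb did not. Those that passed were at 0 to 3.95 CPM at day 0 and at 8.55 to 498 CPM at day 5. Levels are given in CPM, counts scaled to the size of the library, after TMM scaling for library composition. With n = 1 per condition, differentiation was tested with the 3 populations standing in as replicates and genotype with the 3 days standing in as replicates, in 1 edgeR model over 13324 genes. Genes with an adjusted p (Benjamini-Hochberg) under 0.05 are said to have risen or fallen, and ± is the standard error of a log2 fold change. The p-values measure the spread between these libraries, which is not a spread between independent cultures of 1 condition. Per2 was lower in Per2KO than in WT by a log2 fold change of -1.02 ± 0.24 (edgeR adjusted p = 0.023), and Per1 differed in Per1KO by -0.34 ± 0.22 (edgeR adjusted p = 0.31). The gene that was not the target had values of the same sign, Per2 in Per1KO at -0.62 ± 0.24 and Per1 in Per2KO at -0.40 ± 0.22 (edgeR adjusted p = 0.11 and 0.23). Neither gene differed past the threshold between Per1KO and Per2KO. Counts over a whole gene do not show an edit within it.

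Promoters are shown first, because some motifs were found more often in member promoters than in promoters of other genes. RefSeq promoters (GRCm38.p6, 250 bases before to 50 after the transcription start) were found for 69 of the 78 genes, 75 promoters in all. The 4 below belong to genes whose levels are described further on, and capitals mark the motif found. Mrpl12 (chr11:120484512-120484611, + strand) and Mrps18b (chr17:35916591-35916690, - strand) hold the motif of NRF1, an activator of nuclear genes for mitochondria. Mrpl20 (chr4:155802753-155802852, + strand) holds the E-box that the circadian factors CLOCK and BMAL1 and also MYC can bind, and Mrpl34 (chr8:71464801-71464900, + strand) holds an ETS motif of the kind GABP binds. The first 3 lines run from 125 to 26 bases before the start and the last from 250 to 151 bases before it, each 5′ to 3′ along the gene's strand.
Mrpl12: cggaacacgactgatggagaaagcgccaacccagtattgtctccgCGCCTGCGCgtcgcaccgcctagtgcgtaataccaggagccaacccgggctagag
Mrpl20: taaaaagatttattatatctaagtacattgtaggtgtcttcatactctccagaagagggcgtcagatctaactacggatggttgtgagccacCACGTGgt
Mrpl34: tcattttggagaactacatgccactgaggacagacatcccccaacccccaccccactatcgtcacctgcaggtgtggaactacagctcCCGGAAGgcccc
Mrps18b: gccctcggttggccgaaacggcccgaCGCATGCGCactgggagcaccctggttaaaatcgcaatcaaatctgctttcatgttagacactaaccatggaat

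Over all 75 member promoters, 34.7% held the ETS motif CCGGAAG on either strand, against 11.9% of 20004 promoters of protein-coding genes and 8.86% of all 32851 promoters of the same length. The NRF1 motif GCGCANGCG was in 21.3% of member promoters, 8.95% of protein-coding promoters and 6.25% of all. The YY1 motif AAGATGGC was in 16.0% of member promoters, 3.12% of protein-coding promoters and 2.75% of all. The E-box CACGTG was in 9.33% of member promoters, 8.06% of protein-coding promoters and 7.15% of all. Its 7 member promoters belong to 5 genes, since Mrpl2 was entered with overlapping promoters that hold the same site. All motif counts are letter matches, described without a test, and a match is not a bound site. The ETS motif ends in the letters with which the YY1 motif begins, so 1 stretch can hold both.

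**Figure D1:**
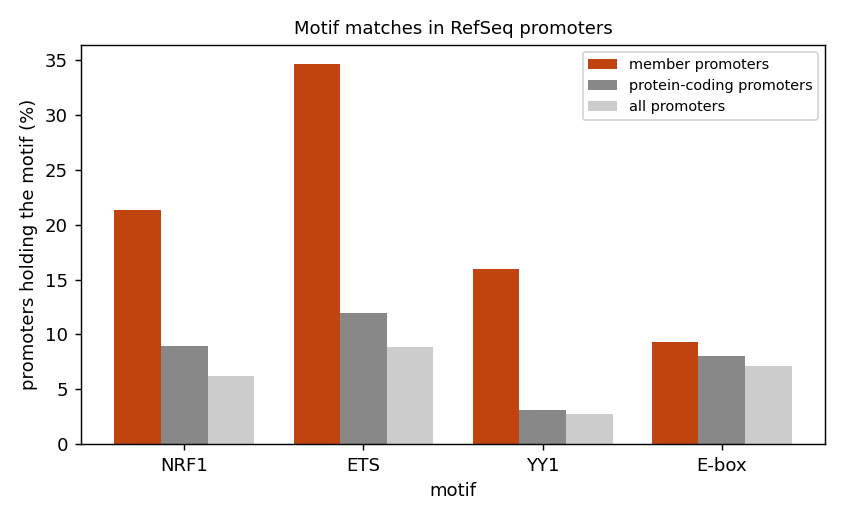
Share of promoters (%, vertical axis) holding each of 4 motifs (horizontal axis) among 75 member promoters, 20004 promoters of protein-coding genes and all 32851 promoters. The ETS bar of the members stands at 34.7% beside 11.9% of protein-coding promoters, while the E-box bars stand at 9.33% and 8.06%.

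Many members also start close to another gene on the other strand. For 33 of 78 members (42.3%) the annotated 5′ end lay within 1000 bases of the 5′ end of a protein-coding gene on the other strand, against 10.9% of all 21619 protein-coding genes. Some neighbours serve the same organelle: Mrps12 adjoins Sars2, the mitochondrial seryl-tRNA synthetase, Mrpl43 adjoins Twnk, the mitochondrial DNA helicase, and Mrps11 adjoins Mrpl46, another member. Pairs whose 5′ ends overlap were counted too, among them Mrpl43 with Twnk and Mrps11 with Mrpl46. Neighbours did not always move together. Sars2 was lower at day 5 than at day 0 by -0.85 ± 0.18 (log2, edgeR adjusted p = 0.0061), whereas Mrps12, the decoding-site protein of the small subunit, differed by 0.06 ± 0.19 (edgeR adjusted p = 0.80). The difference between these neighbours was not itself tested.

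Per kilobase of the longest protein-coding transcript, the members spanned a wide range of levels. The highest means over the 9 libraries were those of Mrpl33 (115 ± 16.2 CPM per kb, SD over 9 libraries), Mrpl52 (114 ± 21.5) and Mrpl42 (101 ± 23.7), all proteins of the large subunit, and these 3 do not differ beyond their spread. The order depends on the transcript length used. At the other end stood Mrpl48 (2.64 ± 0.702 CPM per kb) and Mrps25 (4.54 ± 0.835). With the median length of its protein-coding transcripts Mrpl48 stood at 13.1 CPM per kb, rank 64 of the members. The level of Mrps25 is uncertain, since 58.0% of its 31-base stretches occur in other genes. Its exons also share 69.8% of their bases with Nr2c2 on the other strand. For Mrpl42 and Mrpl33 at the top, 28.6% and 17.6% of these stretches are shared. Mrpl53 was near the counting limit, with 0 to 6 counts per library. Its transcript shares 100% of its 31-base stretches with other genes and 88.0% of its exon bases with Gm42688 on the same strand, so its reads may not have been assigned to it, and it was the only member too low to test. The other 77 were tested.

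Summed, transcripts of the mitochondrial ribosome were most abundant in the undifferentiated knockout populations. In WT the 78 genes summed to 2639 CPM at day 0, 3211 at day 3 and 2631 at day 5. In Per1KO they summed to 3606, 2716 and 2932 CPM, and in Per2KO to 3614, 2642 and 2775 CPM on the same days. Both knockouts thus fell from day 0 to day 3 while WT was higher at day 3 than at either other day. The day 3 sum was 0.753 times the day 0 sum in Per1KO, 0.731 times in Per2KO and 1.22 times in WT. The log2 ratios had 95% counting intervals of -0.42 to -0.40, -0.46 to -0.44 and 0.25 to 0.31, which cover counting error only and not the spread between cultures. By day 5 the ratio to day 0 was 0.813 in Per1KO, 0.768 in Per2KO and 0.997 in WT.

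**Figure D2:**
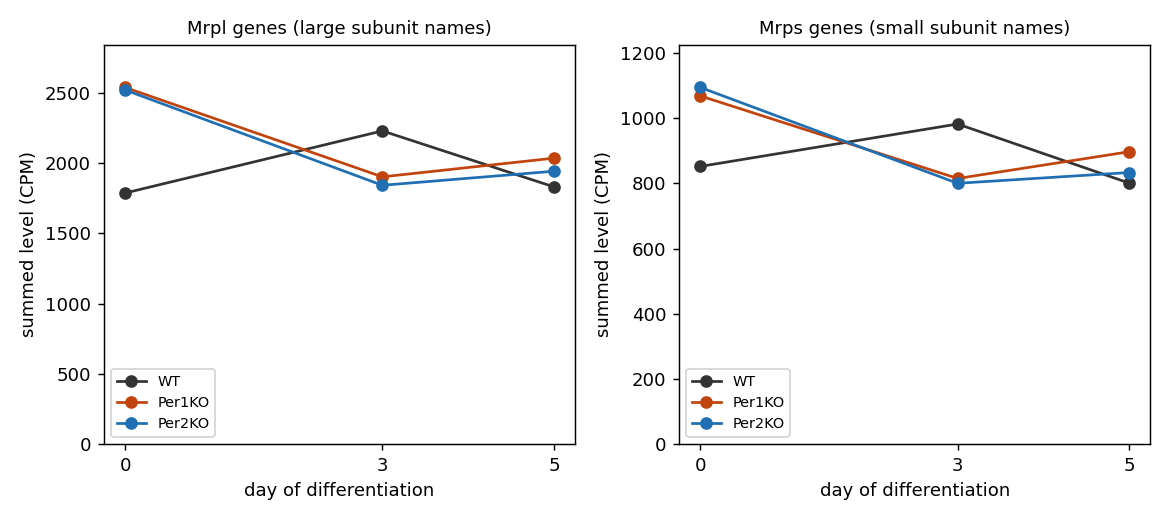
Summed level (CPM, vertical axis) of the 49 Mrpl genes on the left and the 29 Mrps genes on the right against day of differentiation, with 1 point per library. In both panels the 2 knockout lines start above WT at day 0 (2538 and 2520 against 1787 CPM for Mrpl) and lie below it at day 3 (1902 and 1842 against 2229 CPM).

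The sum was not carried by a few genes. From day 0 to day 3, 71 of the 77 tested members were lower in Per1KO (median log2 difference -0.38) and 70 of 77 were lower in Per2KO (median -0.45), while 65 of 77 were higher in WT (median 0.33). Over all 13324 tested genes the medians of these differences were 0.00, -0.01 and 0.00. From day 3 to day 5 the pattern turned: 73 of 77 were lower in WT (median -0.25), and 63 of 77 were higher in Per1KO (median 0.14) and 53 of 77 in Per2KO (median 0.07). Each of these compares 2 libraries and has no replicate check.

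**Figure D3:**
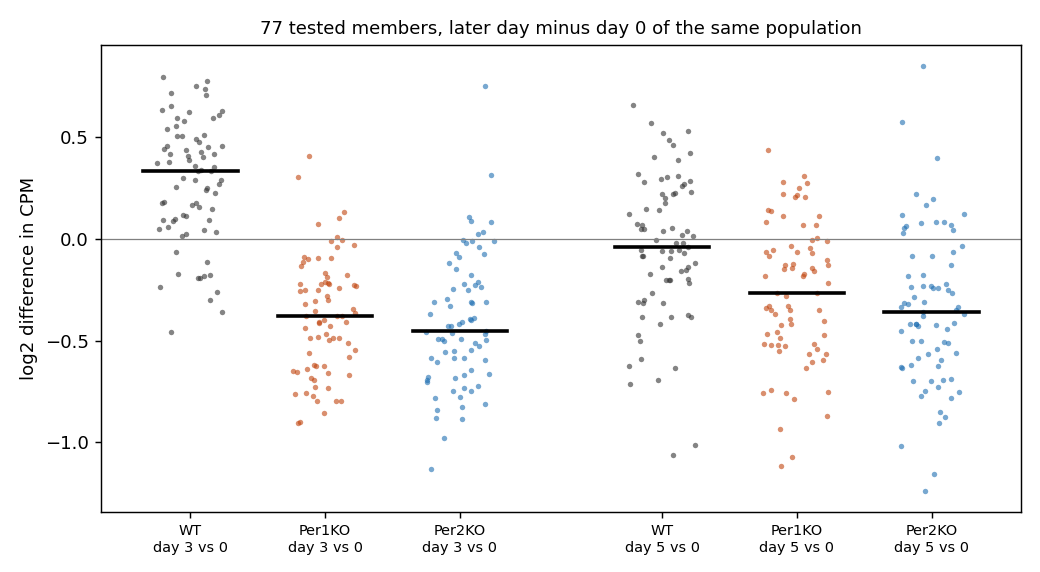
Log2 difference in CPM (vertical axis) between a later day and day 0 of the same population, with 1 dot per tested member and a bar at the median. At day 3 the WT dots lie mostly above 0 (median 0.33) and those of Per1KO and Per2KO mostly below it (medians -0.38 and -0.45).

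Differentiation as a whole was tested across the 3 populations. At day 3, 8 of 77 members fell and 0 rose, where 16.9% of all tested genes fell and 18.1% rose; 19 members were lower and 2 higher at an unadjusted p under 0.05. At day 5, 17 of 77 fell and 0 rose, where 22.9% of all tested genes fell and 23.2% rose; 20 were lower and 1 higher at an unadjusted p under 0.05. The share of members that fell was below the background at day 3 and near it at day 5, and none rose. At an unadjusted p under 0.05 the shares of all tested genes were not counted, so member counts at that cut lack a background. Median log2 fold changes were -0.20 and -0.19, against -0.01 for all genes at both days. Between day 3 and day 5, 0 members rose and 0 fell (backgrounds of 0.698% and 1.09%), with 1 lower and 0 higher at an unadjusted p under 0.05, and DESeq2 also called 0 in either direction. By place in the ribosome, those that fell at day 5 were 6 of 30 large and 5 of 16 small subunit proteins with a bacterial counterpart. Of those listed as specific to mitochondria, 2 of 20 large and 3 of 10 small subunit proteins fell. The last group holds Mrps18b, although it is a copy of the bacterial S18 protein, and only the copy Mrps18c was listed with a bacterial counterpart.

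Mrpl34, a small protein of the large subunit with a bacterial counterpart (chr8:71464959-71465747, GRCm38), fell at both times. Its level was 23.9, 21.2 and 14.7 CPM in WT at days 0, 3 and 5, 24.5, 13.5 and 12.8 CPM in Per1KO, and 20.2, 12.2 and 12.01 CPM in Per2KO. WT at day 3 lay above the lowest day 0 library, so the groups overlapped. The log2 fold change was -0.61 ± 0.16 at day 3 and -0.80 ± 0.16 at day 5 (edgeR adjusted p = 0.022 and 0.0050). Mrps16, a small subunit protein with a bacterial counterpart, had 42.4, 40.5 and 30.6 CPM in WT, 42.5, 24.9 and 25.3 CPM in Per1KO, and 40.5, 24.1 and 22.1 CPM in Per2KO. All 6 later libraries were below the 3 of day 0, with WT at day 3 level with Per2KO at day 0 to the digits given here. Its log2 fold change was -0.71 ± 0.16 at day 5 (edgeR adjusted p = 0.0073).

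Mrps35 and Mrps27, both proteins of the small subunit specific to mitochondria, and Mrpl35 of the large subunit showed the same order of libraries. Mrps35 had 33.5, 36.8 and 42.4 CPM in the day 0 libraries of WT, Per1KO and Per2KO and 22.2 to 26.2 CPM in the 6 later ones. Its fall was -0.57 ± 0.13 at day 3 and -0.68 ± 0.13 at day 5 (edgeR adjusted p = 0.012 and 0.0037). Mrps27 had 36.3, 37.4 and 29.7 CPM at day 0 and 17.4 to 26.5 CPM later, a fall of -0.70 ± 0.16 at day 5 (edgeR adjusted p = 0.0088). Mrpl35 had 18.4, 22.6 and 26.7 CPM at day 0 and 13.6 to 15.7 CPM later, a fall of -0.62 ± 0.15 at day 3 (edgeR adjusted p = 0.015). In each of these 3 genes the day 0 libraries did not overlap the later ones. The reads of Mrps27 are less certain, since 18.2% of its 31-base stretches occur in other genes.

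Among the other members that fell at day 5 were Mrpl58, the peptidyl-tRNA hydrolase that was built into the large subunit (-0.45 ± 0.14, edgeR adjusted p = 0.029), and Mrpl40, also of the large subunit (-0.50 ± 0.17, edgeR adjusted p = 0.040). Mrpl58 had 38.0, 38.9 and 34.5 CPM in WT, 44.5, 33.5 and 31.1 CPM in Per1KO and 48.1, 33.4 and 31.1 CPM in Per2KO, so WT moved little. Mrps36, the 2-oxoglutarate dehydrogenase component, fell by -0.59 ± 0.20 (edgeR adjusted p = 0.044) at a level of 3.85 to 8.05 CPM, and 41.6% of its 31-base stretches are shared, among others with its processed pseudogenes.

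These counts rest on which populations enter, and at day 3 the calls of Mrpl34, Mrps16 and Mrpl35 were also lost with the knockout libraries thinned to WT depth. Without Per1KO, 0 members fell at day 3 and 0 at day 5, and without Per2KO 0 and 2. The shares of all tested genes that fell in these fits were not counted, so these counts have no background beside them. Without WT, in a fit chosen for display after its counts were seen and in which the 2 knockout populations alone stand in as replicates, 49 of 77 fell and 1 rose at day 3, where 28.7% of all 12905 tested genes fell and 29.2% rose. At day 5 of that fit, 41 fell and 4 rose, where 32.4% of all tested genes fell and 32.3% rose. Medians were -0.40 and -0.30, against 0.00 and -0.01 for all genes. Both subunits were included, with 30 of 48 Mrpl and 19 of 29 Mrps genes lower at day 3, and 36 of the 54 members that share under 10% of their 31-base stretches with other genes.

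Mrps26, a mitochondria-specific protein of the small subunit, fell by -0.90 ± 0.12 in the knockouts at day 3 (edgeR adjusted p = 0.0012), and Mrpl13, a bacterial-type protein of the large subunit, by -0.79 ± 0.08 (edgeR adjusted p = 0.00041). The exception at day 3 was Mrpl48, which rose by 0.52 ± 0.15 (edgeR adjusted p = 0.021). At day 5 the 4 that rose were Mrpl48, Mrpl23, Mrps14 and Mrps21, from 0.32 to 0.54. Mrpl23 shares 67.6% of its 31-base stretches, and its level is uncertain. These genes were singled out after their values were seen.

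**Figure D4:**
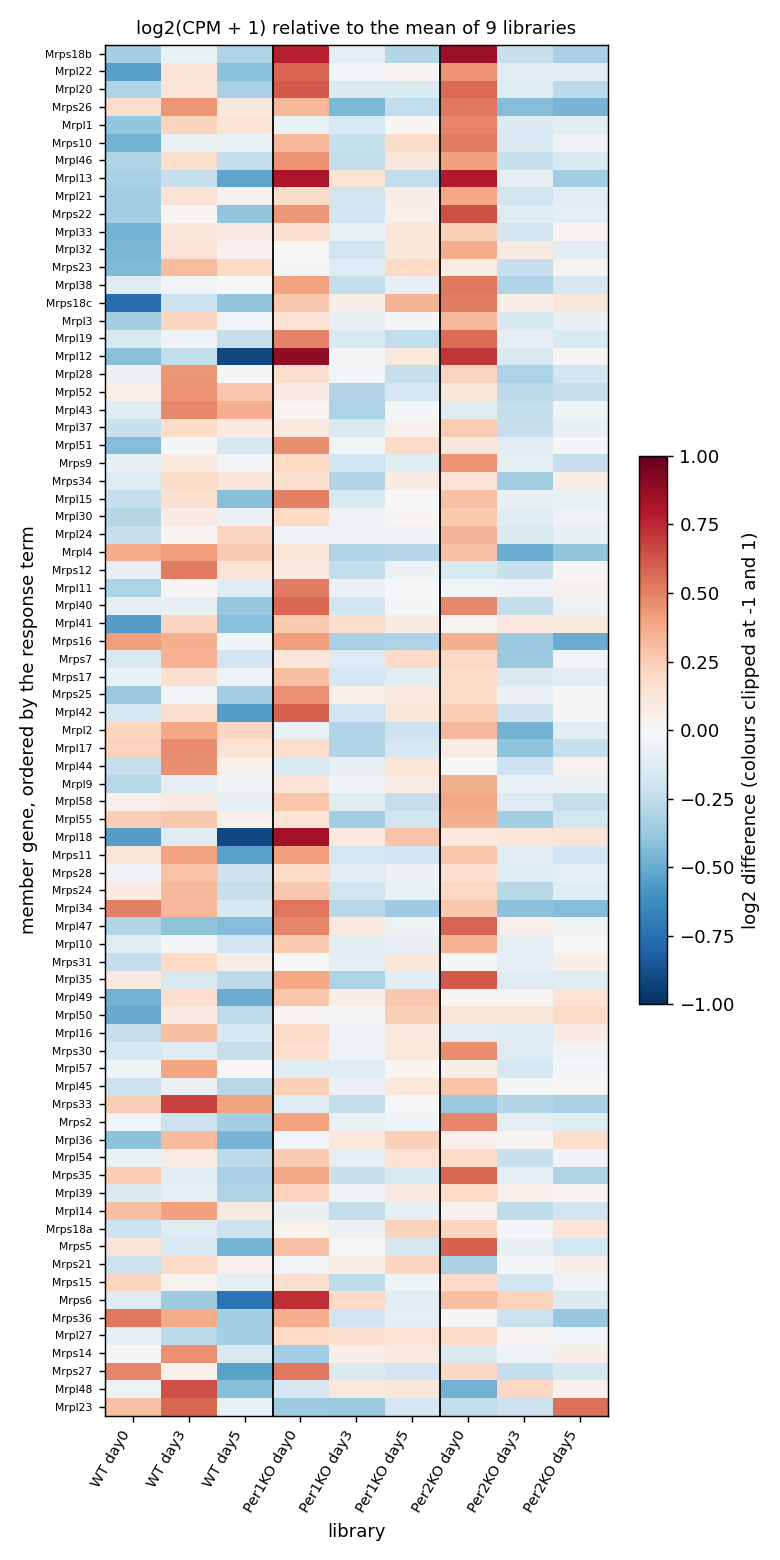
Colours give log2(CPM + 1) of each tested member (rows) in each library (columns), relative to its mean over the 9 libraries, with rows ordered by the response difference described in the next paragraph. The day 0 columns of Per1KO and Per2KO are mostly red, as is WT day 3, and the WT day 0 column is mostly blue with some red.

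Whether the knockouts answered differentiation differently from WT was tested with a term for the change from day 0 in the knockouts minus that in WT. It was below 0 for 71 of 77 members, with a median of -0.51 against 0.01 for all genes. This was not particular to the members, since related gene lists described further on also had medians below 0. The median was -0.63 for the 15 RNAs encoded in mitochondrial DNA and -0.41 for 17 translation factors. It was -0.38 for 10 genes of mitochondrial transcription and genome maintenance, and -0.35 each for 17 aminoacyl-tRNA synthetases and 27 assembly genes. The 5 ribosome proteins with other symbols had -0.38 and the 11 nuclear regulators -0.08. 3 members passed the test as lower and 0 as higher, where 1.45% of all tested genes were lower and 3.5% higher. At an unadjusted p under 0.05, 30 were lower and 0 higher. DESeq2 called 13 lower. The shares of all tested genes at that unadjusted p and with DESeq2 were not counted, so both counts lack a background.

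Mrps18b, 1 of 3 vertebrate copies of the bacterial S18 protein (chr17:35910379-35916389), had 13.3, 16.2 and 13.6 CPM in WT on days 0, 3 and 5. In Per1KO it had 29.9, 15.9 and 13.7 CPM and in Per2KO 31.6, 14.4 and 13.4 CPM. The knockouts were above WT at day 0 and within the WT range or near it later. The response difference was -1.27 ± 0.22 (log2, edgeR adjusted p = 0.027), though 64.3% of its 31-base stretches occur in other genes. Mrpl20, a bacterial-type protein of the large subunit (chr4:155802878-155809975), had 31.6, 42.9 and 31.2 CPM in WT, 60.7, 35.7 and 35.8 CPM in Per1KO and 58.7, 36.1 and 32.5 CPM in Per2KO. It too was high at day 0 of both knockouts, with a difference of -0.99 ± 0.22 (edgeR adjusted p = 0.049). Mrpl13 (chr15:55534094-55557748) had 86.3, 92.1 and 75.0 CPM in WT, 192, 119 and 91.0 CPM in Per1KO and 189, 102 and 84.8 CPM in Per2KO, with a difference of -0.89 ± 0.16 (edgeR adjusted p = 0.030).

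**Figure D5:**
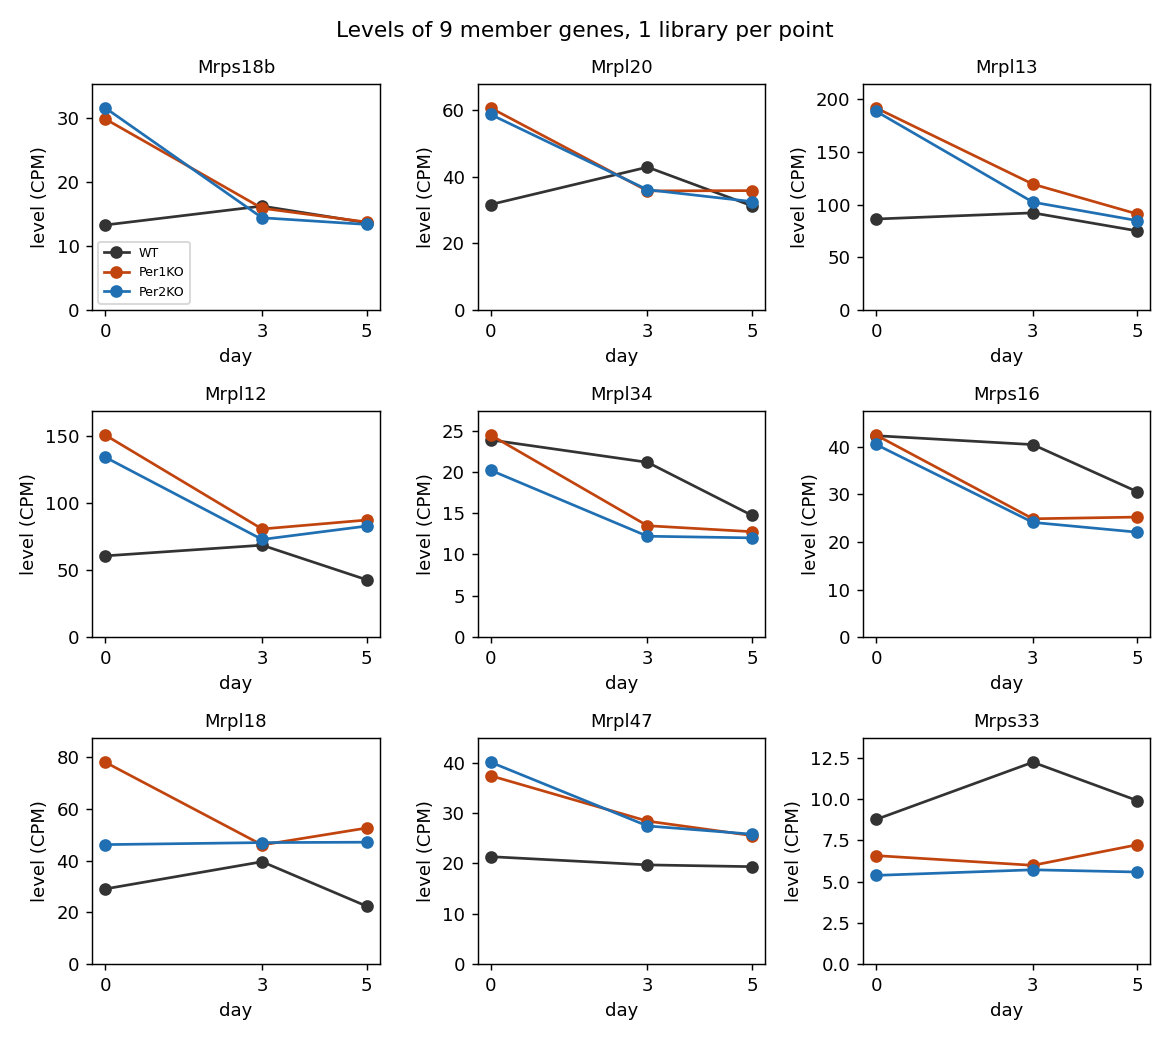
Level (CPM, vertical axes from 0) against day for 9 members, with 1 point per library. Mrps18b, Mrpl20 and Mrpl13 in the top row are high at day 0 of Per1KO and Per2KO, and in the bottom row the knockout points of Mrpl47 lie above WT and those of Mrps33 below it on every day.

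The response term leans on single libraries, above all on WT day 0, which cannot be left out. That library differed from the other day 0 libraries in muscle genes: Myog, the factor that starts terminal differentiation, stood at 124 CPM in WT against 5.35 in Per1KO and 2.91 in Per2KO, and Myh3, embryonic myosin, at 140 CPM against 2.52 and 0.787. The part of this difference in the members' pattern was not tested. Without the WT day 5 library 33 members were lower, where 6.82% of all tested genes were, and without any 1 of the 6 knockout libraries 0 were. Each knockout alone with WT gave 0. The calls of Mrps18b and Mrpl20 were also lost with the knockout libraries thinned to WT depth, and that of Mrpl13 with the GC correction.

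Genotype over all days moved few members. Between Per1KO and WT 4 of 77 were higher and 1 lower, where 9.26% and 10.1% of all tested genes were. Between Per2KO and WT 3 were higher and 1 lower, where 9.31% and 10.6% of all tested genes were. These shares are below the background, and the comparisons share the WT libraries. All of these members share at least 10% of their 31-base stretches with other genes, and among the 54 that share less, 0 passed in either comparison. The median was 0.07 in both, and without day 0 it was -0.08 for Per1KO and -0.12 for Per2KO. Per1KO and Per2KO did not differ in any member (0 higher and 0 lower, backgrounds of 0% and 0%, with 0 at an unadjusted p under 0.05), and DESeq2 called 0.

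Mrpl47, of the large subunit, passed in both comparisons. It had 21.3, 19.7 and 19.4 CPM in WT, 37.4, 28.4 and 25.5 CPM in Per1KO and 40.1, 27.4 and 25.8 CPM in Per2KO, so all 6 knockout libraries were above the 3 of WT. The log2 fold changes were 0.58 ± 0.14 and 0.61 ± 0.14 (edgeR adjusted p = 0.023 and 0.019). Mrps6, of the small subunit, was higher by 0.71 ± 0.13 and 0.56 ± 0.13 (edgeR adjusted p = 0.0091 and 0.023), with 19.8 to 30.8 CPM in WT and 30.5 to 56.9 CPM in the knockouts, which overlap slightly. The Mrpl47 calls were lost in both comparisons when any 1 day was left out, in fits of the 6 libraries compared and with the GC correction, and those of Mrps6 without day 3 or day 5. Exons of Mrpl47 overlap those of Ndufb5 and Actl6a on the other strand, and those of Mrps6 overlap Slc5a3 on the same strand.

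Mrps33, a small subunit protein specific to mitochondria, was the member that was lower in both. It had 8.76, 12.2 and 9.90 CPM in WT, 6.57, 5.98 and 7.23 CPM in Per1KO and 5.37, 5.71 and 5.58 CPM in Per2KO. The groups did not overlap, and the fold changes were -0.64 ± 0.18 and -0.88 ± 0.18 (edgeR adjusted p = 0.041 and 0.012). Both calls were lost with the knockout libraries thinned to WT depth (-0.81 and -0.83, edgeR adjusted p = 0.065 and 0.059), in fits of the 6 libraries compared (0.15 and 0.060) and without day 3 or day 5, and the gene was too low to test at a 10 CPM filter. Mrpl18, of the large subunit, was higher in Per1KO by 0.95 ± 0.24 (edgeR adjusted p = 0.028), with 78.0, 46.1 and 52.6 CPM against 29.1, 39.6 and 22.4 CPM in WT. Per2KO had 46.2, 47.0 and 47.1 CPM, also above WT, and its difference of 0.64 ± 0.23 did not pass (edgeR adjusted p = 0.096).

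Mrpl12, the L7/L12 stalk protein that also binds the mitochondrial RNA polymerase, moved with both day and genotype. Its level was 60.5, 68.4 and 42.7 CPM in WT, 150 (day 0), 80.5 and 87.1 CPM in Per1KO and 134, 72.7 and 82.6 CPM in Per2KO, with every knockout library above every WT library. It was higher in Per1KO by 0.84 ± 0.22 (edgeR adjusted p = 0.032), the Per2KO difference was 0.71 ± 0.22 (edgeR adjusted p = 0.055), and it fell at day 5 by -0.67 ± 0.21 (edgeR adjusted p = 0.032). The Per1KO calls of Mrpl12 and Mrpl18 were lost without day 0, without day 5 and in the fit of 6 libraries. The values of the 3 S18 copies were as follows. Mrps18c was higher in Per2KO by 0.71 ± 0.21 (edgeR adjusted p = 0.049, not held with RLE scaling or with any 1 day left out) and Mrps18a had 0.30 ± 0.12 in the same comparison (edgeR adjusted p = 0.13). Mrps18b had 0.34 ± 0.27 (edgeR adjusted p = 0.41), and the differences among the copies were not tested. Mrps30 had 0.29 ± 0.15 in that comparison (edgeR adjusted p = 0.21).

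The rest of the mitochondrial expression machinery was listed by role. Its counts are to be read against the shares of all tested genes, 23.2% higher and 22.9% lower at day 5, 9.26% and 10.1% in Per1KO, and 9.31% and 10.6% in Per2KO. Of 5 mitochondrial ribosome proteins with other symbols, Dap3, a GTP-binding protein of the small subunit, fell at day 5 by -0.42 ± 0.13 (edgeR adjusted p = 0.029) and 0 rose. Of 27 genes for ribosome assembly and rRNA modification, 3 fell at day 5 and 0 rose, fewer than the background in both directions, among them Rpusd4, a pseudouridine synthase (-0.69 ± 0.17, edgeR adjusted p = 0.013). In Per1KO against WT 1 of these rose, Fastkd2 (0.62 ± 0.17, edgeR adjusted p = 0.038), and 2 fell, with Nsun4, an rRNA methyltransferase, at -0.70 ± 0.14 (edgeR adjusted p = 0.013). In Per2KO 2 fell, with Ddx28, a helicase of large subunit assembly, at -0.75 ± 0.18 (edgeR adjusted p = 0.023).

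Of 17 tested genes listed as translation factors, 1 rose at day 5 and 2 fell. The rise was that of Mss51, a skeletal muscle gene whose part in translation was not examined here (3.75 ± 0.55, edgeR adjusted p = 0.0013). Tsfm, an elongation factor, fell by -0.58 ± 0.20 (edgeR adjusted p = 0.040). Tufm, the elongation factor that brings aminoacyl-tRNA to the ribosome, was lower in Per1KO (-0.73 ± 0.19) and Per2KO (-0.96 ± 0.19; edgeR adjusted p = 0.031 and 0.011). Slirp, which stabilises mitochondrial mRNAs, was higher in both (0.79 ± 0.18 and 0.80 ± 0.18; edgeR adjusted p = 0.019 and 0.018). Of 17 aminoacyl-tRNA synthetases, 2 rose and 4 fell at day 5, a share near the background for those that fell and below it for those that rose, with Nars2 at 0.85 ± 0.25 and Vars2 at -0.98 ± 0.16 (edgeR adjusted p = 0.026 and 0.0018). Of 10 genes for mitochondrial transcription and genome maintenance, Tfb2m, a transcription factor, rose at day 5 by 0.64 ± 0.17 (edgeR adjusted p = 0.016) and 0 fell. The nuclease Mgme1 was higher in both knockouts, by 0.79 ± 0.15 and 0.82 ± 0.15 (edgeR adjusted p = 0.010 and 0.0084).

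Of 11 tested nuclear regulators, 4 fell at day 5 (22.9% of all tested genes) and 0 rose (23.2%): Myc (-1.25 ± 0.43), Gabpb2 (-1.07 ± 0.20), Nrf1 (-0.80 ± 0.13) and Gabpb1 (-0.52 ± 0.12; edgeR adjusted p = 0.045, 0.0037, 0.0019 and 0.011). Myc was not lower at day 5 in WT, with 62.9 CPM at day 0 and 69.5 at day 5, against 72.8 and 29.9 CPM in Per1KO and 159 and 29.6 CPM in Per2KO. Gabpb1 and Gabpb2 encode partner subunits of the ETS factor GABP. Among members whose promoter held the ETS motif the median log2 fold change at day 5 was -0.13 (25 genes) and among those without it -0.19 (43 genes). With and without the NRF1 motif it was -0.16 (16 genes) and -0.17 (52 genes), with and without the YY1 motif -0.06 (12 genes) and -0.17 (56 genes), and with and without the E-box -0.05 (5 genes) and -0.17 (63 genes). These medians are a description without a test.

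The RNAs encoded in mitochondrial DNA, whose mRNAs this ribosome translates, rose with time. Of 15, all 15 rose at day 5 and 7 rose at day 3, where 23.2% and 18.1% of all tested genes rose, with a median of 1.02 at day 5. From day 0 to day 3 their median difference was 0.40 in Per1KO and 0.50 in Per2KO, where the members' medians were -0.38 and -0.45, and 0.97 in WT, where the members' median was 0.33. The 2 sets of genes thus had opposite signs in the knockouts and the same sign in WT at that time. Relative to WT, both sets lay on the same side. The response term was below 0 for all 15 (median -0.63) and for 71 of 77 members (median -0.51). mt-Co3, a subunit of cytochrome oxidase, rose by 1.02 ± 0.14 (edgeR adjusted p = 0.00070). It was also higher in Per1KO and Per2KO than in WT, by 2.13 ± 0.14 and 2.05 ± 0.14 (edgeR adjusted p = 7.7e-05 and 9.2e-05), 1 of 4 that were higher in each comparison (backgrounds of 9.26% and 9.31%). Libraries were made from poly(A) RNA, in which these transcripts are represented by how they are adenylated as well as by their amount.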

How the data were processed

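Poly(A) RNA from 9 C2C12 cultures was sequenced after TruSeq preparation, per the labels' protocols. The authors' deposited values are whole-number counts per gene, used as deposited. The submitters' processing notes name CASAVA 1.8, HISAT2 2.1.0 and mm10; the counting tool, its annotation and its use of strand are not given in the sources used here. Genes were matched to GENCODE M21 (GRCm38), which held 47310 of 47729. Samples were grouped by title. edgeR 4.0.16 (TMM, robust quasi-likelihood test) was fitted with genotype and day as terms, leaving 4 residual degrees of freedom. The response term was added to that model, leaving 3. Genes needed at least 1 CPM in 3 libraries, and log CPM used a prior count of 2. Sharing was the percent of a transcript's 31-base stretches found in other genes, with a limit of 10%. All fits ran over every tested gene, and the fitting code was tested on simulated data.

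Genes named in the text were the fixed members Mrpl12, Mrpl58, Mrps12, Mrps18a, Mrps18b, Mrps18c, Mrps30, Mrps36 and Mrpl23, up to 6 members with the largest change among those called in each direction, the 3 highest and 3 lowest per kilobase, and the called gene with the largest change in each pathway list. The members and lists were chosen with earlier results of these data known. Alternatives were RLE scaling, DESeq2 1.42.0, other filters, thinning of the knockout libraries, a GC and length correction, members with little shared sequence, and leaving out days, populations or, chosen after seeing the data, single libraries. RefSeq promoters and GENCODE 5′ ends were read with Python 3.11.15.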

Additional observations from a re-analysis of the deposited data

Results flagged for a closer look

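In 3 members the change from day 0 differed between the knockouts and WT by the test of the difference itself (edgeR quasi-likelihood, adjusted over all genes): Mrps18b at -1.27, Mrpl20 at -0.99 and Mrpl13 at -0.89 on the log2 scale. The members' median difference between day 3 and day 0 was 0.33 in WT, -0.38 in Per1KO and -0.45 in Per2KO, opposite in sign between WT and both knockouts. That difference of medians was not tested, and each median compares 2 libraries.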

How the results depend on the processing

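The fits compare days within populations and genotypes within days, and no replicate block could be added because every population and day is 1 library. For the refits in this section, the shares of all tested genes called were counted only without WT and without the WT day 5 library. The other counts of members therefore have no background beside them. Members lower at day 3 (8) were 4 with the knockout libraries thinned to WT depth, 29 with GC and length trends removed and 0 to 49 with 1 population left out; members higher (0) were 1 with DESeq2, 1 with the GC correction and 0 to 1 with 1 population left out. Members lower at day 5 (17) were 31 with the GC correction, 9 among members sharing under 10% of their sequence and 0 to 41 with 1 population left out; members higher (0) were 1 with a 10 CPM filter, 2 with the GC correction and 0 to 4 with 1 population left out.

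For Per1KO against WT, members higher (4) were 7 with DESeq2, 8 with the GC correction, 0 among those sharing under 10%, 1 in a fit of the 6 libraries compared and 0 to 4 with 1 day left out. Members lower (1) were 3 with DESeq2, 0 to 5 with 1 day left out, and 0 with TMM over little-shared genes, no filter, a 10 CPM filter, thinning, little-shared members or 6 libraries. For Per2KO against WT, members higher (3) were 0 among little-shared members, 0 with 6 libraries and 0 to 1 with 1 day left out. Members lower (1) were 4 with DESeq2, 3 with the GC correction, 0 to 8 with 1 day left out, and 0 with a 10 CPM filter, thinning, little-shared members or 6 libraries.

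The response term called 3 members lower; DESeq2 called 13, either knockout alone with WT 0, and fits without 1 day or library 0 to 33, the highest without WT day 5, with 27 without all of day 5. Its median (-0.51) ran from -0.70 to -0.25, the latter without WT day 3. The causes of these changes were not tested. Summed day 3 ratios (log2) were -0.43 in Per1KO and -0.47 in Per2KO with RLE scaling, and -0.38 in Per1KO for little-shared members; day 5 ratios were -0.31 in Per1KO with RLE, and -0.27 in Per1KO and -0.40 in Per2KO for little-shared members. The WT day 5 ratio, -0.0039 with a counting interval of -0.037 to 0.029, was 0.0014 with RLE and 0.029 for little-shared members. Of 703 checks of named members, none turned a called direction, 103 lost the call and 15 gained it. Some of these checks could not lose a call. They covered fixed members not called in the main fit, little-shared members read again from that fit, and the order of levels per kilobase. So 103 of 703 is not the rate at which calls were lost. A count of 0 in WT allows up to 0.443 to 0.598 CPM and in the knockouts 0.0624 to 0.0714 CPM (3 counts), which limits statements on Mrpl53.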
